A study of Homo sapiens with 6 samples.

Results

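The genes described here encode the FOS and JUN subunits of the transcription factor AP-1. They were taken by name as FOS, FOSB, FOSL1, FOSL2, JUN, JUNB and JUND, which gave 7 of 20660 gene names and 32 of 82428 coding sequences in the authors' deposited table. Of these 32 coding sequences 22 had been tested by the authors. RNA was sequenced from FaDu cells, an established human line of head and neck squamous cell carcinoma (HNSCC), given either DMSO, the vehicle, or BB608, a compound known here only by its code name. Each of the 2 groups had 3 biological replicates, and the sources used here state neither a dose nor a treatment time. FPKM, a level corrected for sequence length and library depth, was the unit. The authors gave 1 value per coding sequence and group, pooled over libraries, so no spread between replicates can be shown. Their names for the groups are DMSO_subset and BB608_subset. The word subset is not explained, so it is not known whether each value rests on all 3 libraries of its group.

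AP-1 is a dimer of leucine zipper (bZIP) proteins. FOS proteins cannot pair with each other and need a JUN partner, whereas JUN proteins also pair among themselves, and the dimers bind the sequence TGACTCA or, with more distant relatives, TGACGTCA. FOS, FOSB, JUN and JUNB are immediate-early genes whose transcription follows MAP kinase signalling from growth factor and stress receptors, FOSL1 (FRA-1) and FOSL2 (FRA-2) are usually induced later and are more stable, and JUND is the least inducible of the JUN genes. In squamous epithelium AP-1 acts on genes of proliferation, differentiation, inflammation and matrix breakdown.

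With BB608, a coding sequence of FOS and that of JUN fell, and no coding sequence of the other 5 genes was called by the authors' test. The called FOS coding sequence went from 36.6 to 15.5 FPKM and the single JUN coding sequence from 34.6 to 23.0 FPKM, by the authors' deposited table. FOSL1, whose gene sum was close to that of FOS in DMSO, had gene sums of 120 FPKM in DMSO and 121 FPKM in BB608. A coding sequence was called where the authors' Cuffdiff q was under 0.05. By that rule 2 of 22 tested member sequences, or 9.09%, fell and none rose, against 0.212% of all 34474 tested coding sequences lower and 0.142% higher in BB608. The authors' unadjusted p was under 0.05 in 4 of 22, all lower and 3 of them from FOS, against 1.51% of all tested sequences lower and 1.8% higher. The earlier results of these data were known when these genes were chosen, so the count is a description.

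Promoter sequence of FOS and JUN is shown because both genes fell, and of JUNB because it lay at a level near that of JUN and was not called. Each line gives the 250 bases before the transcription start in RefSeq, 5′ to 3′ on the gene's own strand, in build GRCh38.p14. Capitals mark TGACG, the core shared by cAMP response elements, TGACATCA, a close relative of the AP-1 and cAMP response motifs, a match to the MEF2 motif in JUN next to it, and TATAAA, a core promoter element.
FOS, chr14:75278578-75278827, plus strand: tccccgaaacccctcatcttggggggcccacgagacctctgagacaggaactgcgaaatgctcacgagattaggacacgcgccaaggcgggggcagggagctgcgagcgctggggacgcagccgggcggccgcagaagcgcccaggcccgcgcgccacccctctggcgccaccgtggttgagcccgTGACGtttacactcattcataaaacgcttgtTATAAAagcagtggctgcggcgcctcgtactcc
JUN, chr1:58784048-58784297, minus strand: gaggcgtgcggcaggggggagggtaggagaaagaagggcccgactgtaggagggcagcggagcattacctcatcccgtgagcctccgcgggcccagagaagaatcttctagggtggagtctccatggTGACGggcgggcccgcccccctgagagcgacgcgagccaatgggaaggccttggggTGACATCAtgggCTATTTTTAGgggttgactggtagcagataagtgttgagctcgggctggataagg
JUNB, chr19:12791236-12791485, plus strand: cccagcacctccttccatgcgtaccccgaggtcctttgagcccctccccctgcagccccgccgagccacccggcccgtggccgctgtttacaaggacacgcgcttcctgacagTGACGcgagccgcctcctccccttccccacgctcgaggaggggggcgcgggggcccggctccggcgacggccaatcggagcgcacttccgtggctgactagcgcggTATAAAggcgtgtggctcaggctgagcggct

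RefSeq promoters were matched for 6 of the 7 genes, all but FOSL1. TGACG, searched on both strands, was in all 6 windows and in 21.2% of 35116 promoter windows of this length. G and C made up 62% of the bases in the JUN window, the lowest of the 6, and 74.8% in that of JUND, the highest. The background windows were not matched for this. In FOS it began 64 bases before the start, in FOSB 60 and in FOSL2 66, the last with a second match on the other strand. In JUN it began 123 bases and in JUNB 137 bases before the start. JUN alone of the 6 held TGACATCA, 67 bases before the start, a motif in 2.37% of all windows on either strand. JUN alone also held the MEF2 motif, in 2.8% of all windows, and it overlaps none of the other motifs. JUND alone held the full TGACGTCA, which contains TGACG on both strands and was in 1.65% of all windows. TATAAA was in the windows of FOS, FOSB and JUNB and in 10.7% of all windows. Neither TGACTCA, in 4.20% of all windows, nor the CArG box bound by serum response factor, in 1.16%, was in any of the 6 windows. Sequence farther from the start than these windows was not searched, so neither motif can be called absent from the promoters of these genes. The listed motifs are matches of letters in a short window and show no binding. Whether any of them bears on the fall of FOS and JUN was not tested.

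A gene sum is the FPKM added up over all coding sequences of a gene, and gene sums, being per length, can be compared between genes. FOSL1, the highest, was 69.6 times FOSB, the lowest, in DMSO. In DMSO the order of gene sums from the top was FOSL1 at 120 FPKM, FOS at 114, JUN at 34.6, JUNB at 26.2, FOSL2 at 5.37, JUND at 2.32 and FOSB at 1.72. In BB608 it was FOSL1 at 121 FPKM, FOS at 74.8, JUNB at 27.2, JUN at 23.0, FOSL2 at 5.69, JUND at 2.19 and FOSB at 1.51. JUN and JUNB changed places, with JUN at 1.32 times JUNB in DMSO and JUNB at 1.18 times JUN in BB608. FOSL1 was 1.05 times FOS in DMSO and 1.61 times FOS in BB608. With no value per library it cannot be said which neighbours in either order differ beyond their spread. In bulk RNA, fewer cells carrying a transcript and less transcript per cell cannot be told apart.

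**Figure D1:**
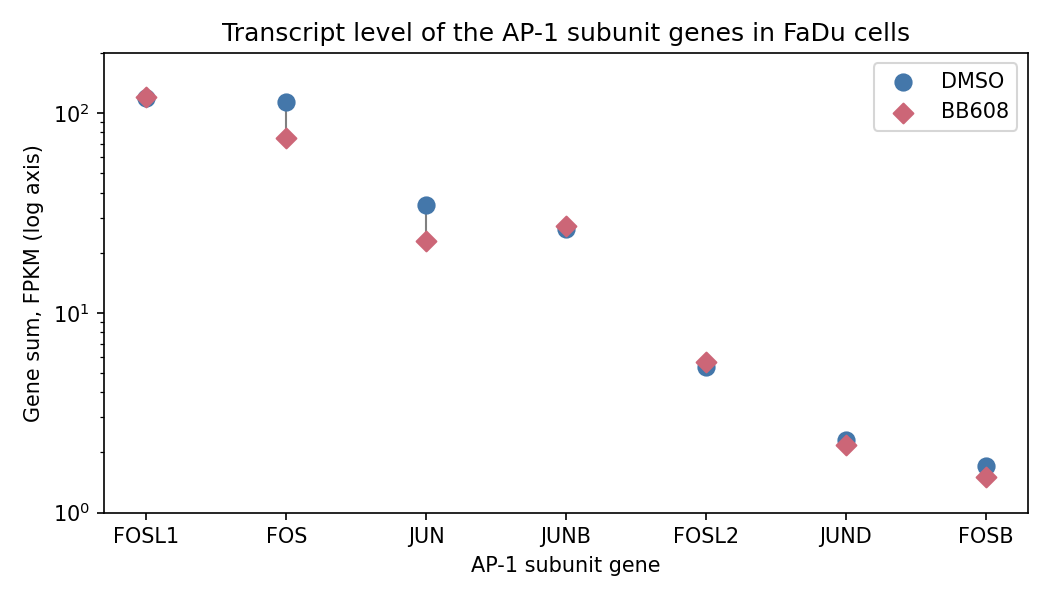
Gene sum of each AP-1 subunit gene in FPKM, on a log axis, as 1 value pooled by the authors per group (circles DMSO, diamonds BB608), with no error since no value per library is shown. FOS went from 114 to 74.8 and JUN from 34.6 to 23.0, while the 2 symbols of FOSL1 overlap at 120 and 121.

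FOS, the founding FOS subunit, lies at 75745476 to 75749525 on chromosome 14 of hg19, the build of the authors' table. It had 9 coding sequences, 8 of them tested, among which Cuffdiff divided the gene's reads. The table identifies them only by number and does not pair them with transcripts. The called one, P22371, was the most abundant in DMSO, at 36.6 FPKM against 15.5 FPKM in BB608. Its log2 fold in the authors' deposited table was -1.24, with a q of 0.0154. The implied SE, derived from the authors' statistic and p-values, was 0.16, which gives a 95% interval of -1.55 to -0.94. The authors' p of 5e-05 is the smallest their test gives, and an SE taken from that p alone would be at most 0.31, with an interval of -1.84 to -0.64. Either interval lies below 0.

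The next most abundant FOS sequences were also lower in BB608 without a call. By the authors' deposited table, P22378 was at 23.1 FPKM in DMSO and 13.4 in BB608, with a log2 fold of -0.78 and an implied SE of 0.26 (p 0.0028, q 0.431). P22376 was at 16.1 and 8.07 FPKM, a difference of -50.0% that does not pass the q of the authors' deposited table, with an implied SE of 0.40 log2 (p 0.0253, q 0.997). P22377 was at 13.9 FPKM in DMSO and 10.4 in BB608, and P22375 at 8.04 and 7.06, with intervals that include 0. P22379 was higher in BB608, at 12.4 and 15.9 FPKM, with an implied SE of 1.33, the widest of the FOS sequences. P22372 was at 3.77 and 3.82 FPKM. P22373 was listed at practically 0 in DMSO and at 0.667 FPKM in BB608 with the authors' p at 0.351, and no fold is given for it. The untested P22374 was below 0.001 FPKM in both groups.

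Summed over all its coding sequences, FOS went from 114 to 74.8 FPKM, which is -0.61 on the log2 scale and a change of -34.3%. The called sequence made up 32.1% of the FOS sum in DMSO and 20.7% in BB608, and 54.0% of the net change. Without it the sum of FOS was 77.3 FPKM in DMSO and 59.4 in BB608, or -0.38 on the log2 scale. The 3 sequences with an unadjusted p under 0.05, grouped after their values were seen, went together from 75.8 to 37.0 FPKM, and the others from 38.1 to 37.9 FPKM. How much of this split reflects the division of reads among overlapping coding sequences was not tested.

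**Figure D2:**
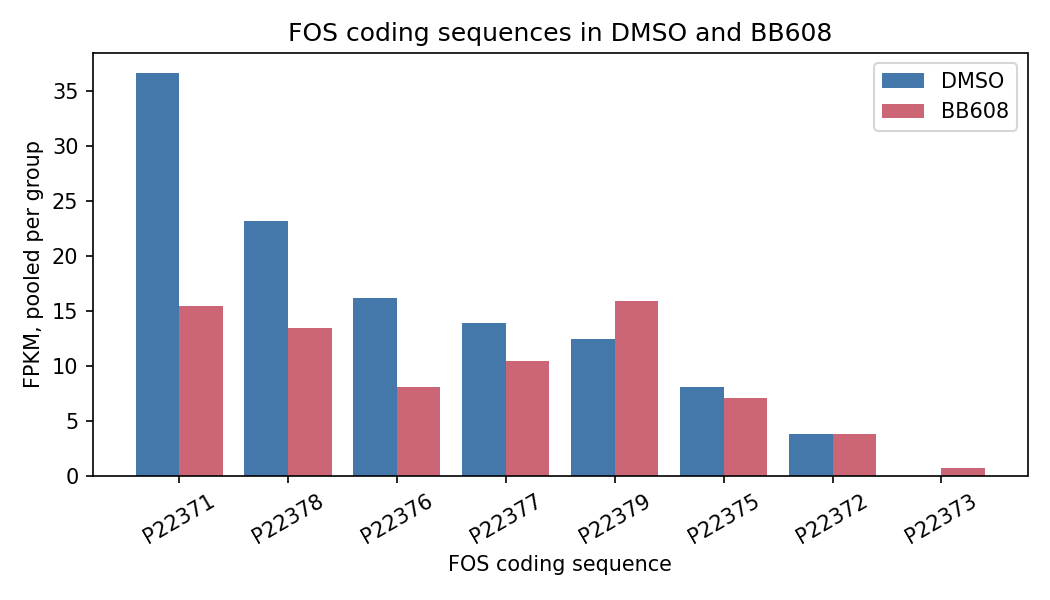
FPKM of the FOS coding sequences above 0.1 FPKM over both groups, by their number in the authors' table, as 1 pooled value per group (blue DMSO, red BB608). The leftmost, P22371, went from 36.6 to 15.5 FPKM and is the only one called, while P22379 was higher in BB608, at 15.9 against 12.4 FPKM.

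JUN, the main partner of FOS and an activator of its own gene, lies at 59246464 to 59249785 on chromosome 1 of hg19. It has 1 coding sequence, so its fold does not depend on how reads were divided within the gene. JUN fell from 34.6 to 23.0 FPKM by the authors' deposited table, with a log2 fold of -0.59 and a change of -33.4%. The q was 0.0154 and the implied SE 0.10, with an interval of -0.78 to -0.40, or of -0.87 to -0.30 with the largest SE the smallest p allows. Among genes with 1 tested coding sequence, 1.27% were called lower in BB608, and among sequences of genes with more than 1, as for FOS, 0.0905% were. The gene sums of FOS and JUN changed by similar amounts, at log2 folds of -0.61 and -0.59. The ratio of FOS to JUN gene sums was 3.30 in DMSO and 3.25 in BB608. Of 10859 kept genes, 3.41% had a lower fold than FOS and 3.63% a lower fold than JUN. A kept gene had a tested sequence, no failed test, and a gene sum above 0 in both groups that reached 1 FPKM in either. Entries that join several gene names were left out.

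FOSL1, which encodes FRA-1, lies at 65659489 to 65668044 on chromosome 11 of hg19 and had 6 coding sequences, all tested and none called. Its most abundant one, P13746, was at 52.1 FPKM in DMSO and 53.1 in BB608, and the authors' deposited table gives a log2 fold of 0.03 with an implied SE of 0.19 and an interval of -0.34 to 0.39. That interval leaves out the folds estimated for P22371 of FOS and for JUN, as does that of P13748. The intervals of the other 4 FOSL1 sequences include the fold of JUN. With the largest SE the smallest p allows, the JUN interval of -0.87 to -0.30 overlaps that of P13746. The difference between members was not tested. The fold farthest from 0 was that of P13748, at 2.91 and 5.93 FPKM, with 1.02 on the log2 scale and an implied SE of 0.66 (p 0.127, q 0.997 in the authors' deposited table). P13749 was at 21.2 and 23.5 FPKM, P13747 at 19.5 and 14.5, P13750 at 13.2 and 12.1, and P13745 at 10.6 and 11.8. All 6 intervals include 0. The FOSL1 gene sum had a log2 fold of 0.02, and -0.02 once gene sums were scaled to a median fold of 0.

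FOSL2, which encodes FRA-2, lies at 28607275 to 28640245 on chromosome 2 of hg19 and had 3 tested coding sequences, none called. P45752 was at 3.03 and 3.56 FPKM in DMSO and BB608, with the authors' fold at 0.23 on the log2 scale (implied SE 0.40). P45753 was at 1.71 and 1.82 FPKM, with 0.09 (implied SE 0.25), and P45754 at 0.634 and 0.314 FPKM, with an implied SE of 1.87. Changes of 1 log2 lay outside the interval of P45753, at -0.39 to 0.57, and inside that of P45754. FOSB, a FOS subunit best known for its stable splice form in neurons, had 10 coding sequences of which 8 were not tested. By the authors' deposited table its tested P41364 was at 0.708 and 0.870 FPKM and P41362 at 0.624 and 0.419, with implied SEs of 1.02 and 1.25. Neither a rise nor a fall of 1 log2 in FOSB could be told from no change at this precision. The FOSB gene sum had a log2 fold of -0.18, while its most abundant sequence had 0.30. The locus listed for FOSB, 45882891 to 45982086 on chromosome 19, is shared in the table with CD3EAP, PPP1R13L and ERCC1.

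JUNB and JUND, which both act as weaker activators than JUN in many settings, each had 1 coding sequence and no call. By the authors' deposited table JUNB was at 26.2 FPKM in DMSO and 27.2 in BB608, with a log2 fold of 0.06, an implied SE of 0.25 (p 0.818) and an interval of -0.43 to 0.54. JUND was at 2.32 and 2.19 FPKM, with the authors' fold at -0.09 on the log2 scale, an implied SE of 0.17 (p 0.609) and an interval of -0.42 to 0.25. The JUN interval, -0.78 to -0.40, overlaps both at its upper end, and the difference between members was not tested. JUNB lies in a listed locus at 12873816 to 12985765 on chromosome 19 that it shares with HOOK2, RTBDN, RNASEH2A, MAST1 and PRDX2, and JUND at 18390562 to 18392432 on the same chromosome.

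**Figure D3:**
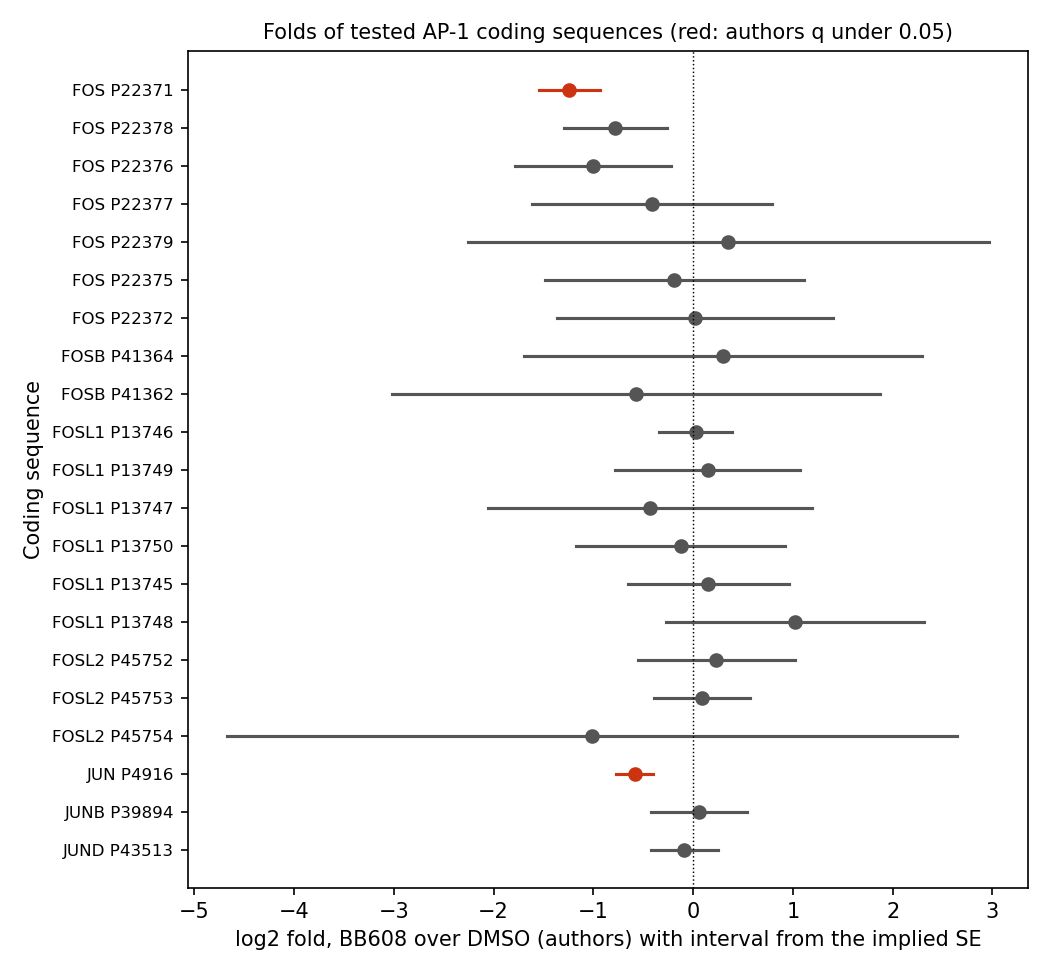
Log2 fold of BB608 over DMSO in the authors' deposited table for the 21 tested AP-1 coding sequences with a usable implied SE, with the 95% interval from that SE, in red where the authors' q is under 0.05. FOS P22371 at -1.24 and JUN at -0.59 are the red points, and the implied SE ranges from 0.10 for JUN to 1.87 for FOSL2 P45754.

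FOS and JUN each made up a smaller share of their family in BB608, and the ratio between the families was similar in both groups. The 4 FOS type genes summed to 241 FPKM in DMSO and 203 in BB608, a log2 fold of -0.25, and the 3 JUN type genes to 63.0 and 52.4 FPKM, a log2 fold of -0.27. FOS type FPKM was 3.82 times JUN type FPKM in DMSO and 3.87 times in BB608. FOS made up 47.4% of its family in DMSO and 36.9% in BB608, and FOSL1 49.7% and 59.6%. JUN made up 54.8% of its family in DMSO and 43.9% in BB608, and JUNB 41.5% and 51.9%. FOSB, FOSL2 and JUND were minor in both groups, none above 4.17% of its family. These shares are of pooled transcript levels, carry no error and say nothing of protein.

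**Figure D4:**
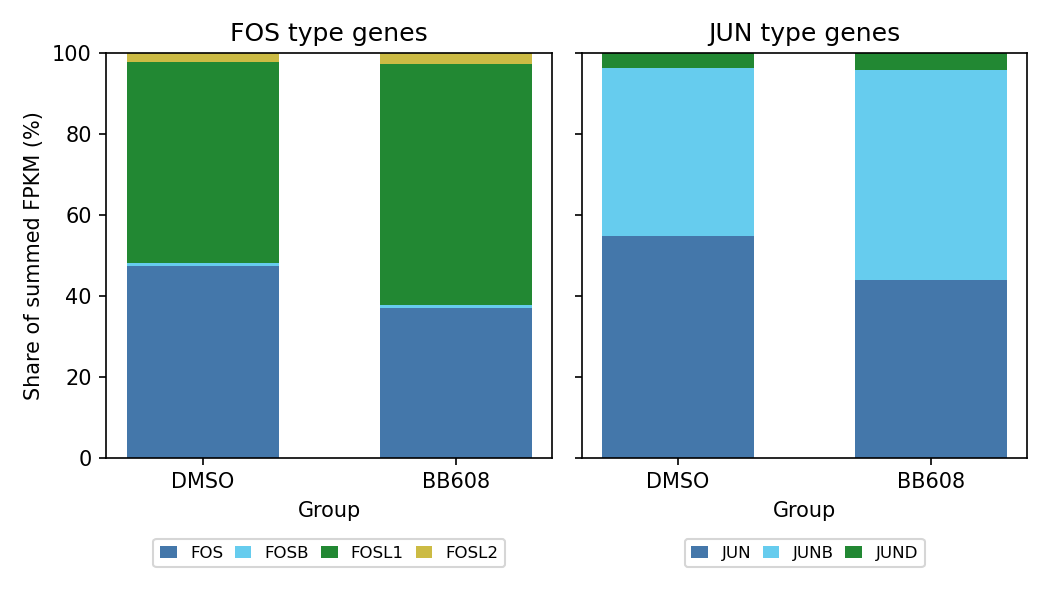
Share of each gene in the summed FPKM of the FOS type genes (left) and of the JUN type genes (right), in percent, for the pooled DMSO and BB608 values. FOS was at 47.4% in DMSO and 36.9% in BB608 and JUN at 54.8% and 43.9%, with larger shares of FOSL1 and JUNB in BB608.

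Gene structure and mRNA elements in GENCODE 29 were set beside these values. JUN, JUNB and JUND have 1 exon each and the FOS type genes 4 in their principal transcripts, which matches the single coding sequence of each JUN type gene in the authors' table. The nonamer TTATTTATT, a core of the AU-rich elements that mark mRNAs for rapid decay, was searched on the mRNA strand of the 3′ untranslated region. FOS and FOSL2 held 1 copy each and the other 5 genes none. Of 2610 genes with a 3′ region within 25% of the length of that of FOS, 4.83% held it, and for the longer region of FOSL2 it was 21.0% of 1389. The shorter ATTTA, which lies inside that nonamer, occurred 5 times in FOS, 9 times in FOSL2, 3 times in JUN and in FOSB, 2 times in JUNB and 1 time in FOSL1 and in JUND. Whether these elements bear on the levels with BB608 was not tested.

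Among 21 bZIP genes whose products pair with AP-1 subunits or share their sites, 17 were tested, 3 fell, none rose and 14 were not called. Of all tested genes 0.63% had a called sequence that was lower and 0.429% one that was higher. All 4 gene lists, this one and those below, were chosen with earlier results of these data known, so their counts are a description. The list's median log2 fold of gene sums was -0.05, against 0.03 over all 10859 kept genes. Among the called genes were the stress-induced ATF3, a JUN partner, with -4.09 (implied SE 0.48) for its called sequence and -2.13 for its gene sum, and the small MAF gene MAFF with -1.07 (implied SE 0.15) in the authors' deposited table. The called ATF3 sequence was at 6.51 FPKM in DMSO and 0.381 in BB608. With 1 FPKM added to both groups its fold was -2.44. MAFF went, in its called sequence, from 21.7 to 10.3 FPKM, and its gene sum had a log2 fold of -0.88. For ATF3 and MAFF the authors' Cuffdiff p was 5e-05, the smallest their test gives. Their implied SEs are therefore extrapolated, and larger ones are possible. The most abundant gene of the list was ATF4, a mediator of the integrated stress response, at 315 and 260 FPKM (p 0.00265, q 0.413 in the authors' deposited table). JDP2, a repressor that dimerizes with JUN, named after its values were seen, was at gene sums of 21.8 and 22.7 FPKM. BATF, BATF2, BATF3 and MAF had no tested sequence.

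The kinases and factors that act upstream of FOS and JUN numbered 27, all tested, and the authors' Cuffdiff q called none of them. At the authors' unadjusted p under 0.05 there were 2 of 27, MAP2K2 and ELK4, where 9.49% of all tested genes had such a coding sequence, so the list holds no more than the background. The list's median log2 fold was 0.02. ELK4, a partner of serum response factor, named after its values were seen, was at 0.406 and 1.13 FPKM (p 0.0169, q 0.997). Among the most abundant were the MAP kinase kinase MAP2K2, at gene sums of 82.5 FPKM in DMSO and 92.3 in BB608, the JUN-binding signalosome subunit COPS5 at 58.4 and 59.1, and MAP2K3 at 34.9 and 35.5. Transcript levels do not show the activity of these kinases.

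Genes described as AP-1 targets, 25 of 32 tested, had 3 that fell, none that rose and 22 not called, where 0.63% of all tested genes had a called sequence lower and 0.429% one higher in BB608. Of the 25 kept, 19 were lower in BB608, or 76.0%, against 42.4% of all kept genes, with a median log2 fold of -0.20. By the authors' deposited table, the prostaglandin enzyme gene PTGS2 had -1.72 (implied SE 0.21) and the EGF receptor ligand gene HBEGF -1.36 (implied SE 0.22). The neutrophil chemokine gene IL8 had -1.10 (implied SE 0.10). The gene sum of PTGS2 had -1.96. All 3 had a Cuffdiff p of 5e-05, the smallest that test gives, so these SEs are extrapolated and larger ones are possible. By contrast with these 3 genes, CD44, the most abundant gene of the list, had gene sums of 425 and 423 FPKM. The 4 tested collagenase and stromelysin genes of the list, none called and named here after their values were seen, had gene sums of 54.9 and 55.4 FPKM for MMP1, 29.5 and 29.2 for MMP10, 60.6 and 55.4 for MMP13, and 6.02 and 4.51 for MMP3. These targets are also targets of other factors, so the list is not a measure of AP-1 activity.

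Of 24 tested immediate-early genes outside AP-1, 8 fell, none rose and 16 were not called, where 0.63% of all tested genes had a called sequence that was lower. That share was 1.27% among genes with 1 tested coding sequence, to which several called genes of this list belong. Of 23 kept, 22 were lower in BB608, where 42.4% of all kept genes were lower. This list too was chosen with earlier results known, so these counts are a description. The median log2 fold was -0.54, beside -0.61 and -0.59 for the gene sums of FOS and JUN. The called ones ran from CSRNP1, a transcription factor gene, at -2.79 (implied SE 0.31) to IER3, a survival gene, at -0.45 (implied SE 0.11) in the authors' deposited table. Between them lay the cytokine feedback inhibitor SOCS3 at -1.53, GADD45B at -1.39, the MAP kinase phosphatase gene DUSP1 at -1.33, the antiproliferative gene BTG2 at -1.08, DUSP5 at -0.83 and the matricellular gene CTGF at -0.79 in that deposited table. The gene sum of GADD45B, which had 4 tested sequences, had -0.79, and that of SOCS3, which had 2, had -1.24. CSRNP1 was at 6.44 FPKM in DMSO and 0.933 in BB608, and with 1 FPKM added to both groups its fold was -1.94. Its Cuffdiff p was 5e-05, the smallest that test gives, so its implied SE is extrapolated and a larger one is possible.

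**Figure D5:**
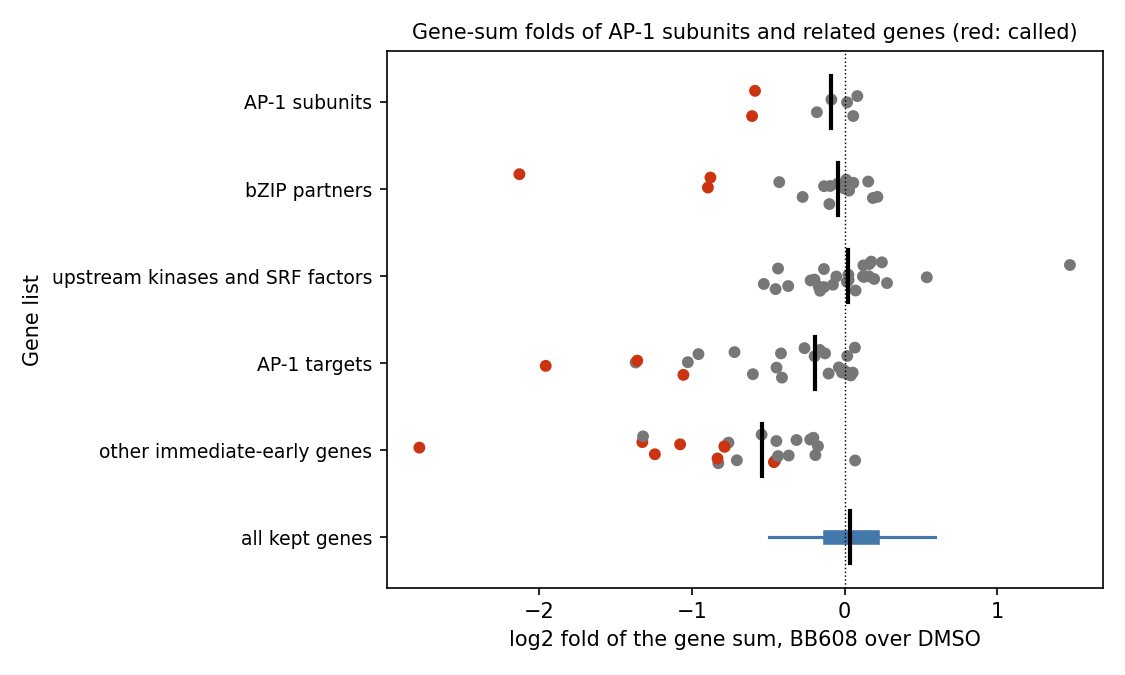
Log2 fold of gene sums, BB608 over DMSO, for the AP-1 subunits and the kept genes of 4 lists, with 1 point per gene (vertical position within a list is arbitrary), red where a coding sequence has an authors' q under 0.05, and a black bar at the median. The lowest line shows all 10859 kept genes by median, quartiles and the 5th to 95th percentile, -0.49 to 0.59, and the immediate-early median lies at -0.54.

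Genes whose pooled values were most like those of FOS, by the smallest gap in log2 fold among 1185 kept genes with a DMSO gene sum within 2-fold of it, were AC012360.2 at -0.55, PTPN12 at -0.51 and PET100 at -0.50. For FOSL1, among 1119 genes, they were VRK1, UBE2D3 and FAM60A, each at 0.02. This likeness rests on 2 pooled values per gene.

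The labelled cell type was checked against markers. All 10 genes of the squamous epithelial list were present in both groups, from 8.44 FPKM for DSG3 to 2334 FPKM for KRT5 in DMSO. The list includes CDH1 and EPCAM, which are epithelial genes not particular to squamous cells. The 7 fibroblast markers summed to 1.03 FPKM in DMSO and 0.883 in BB608, with COL1A2, COL3A1 and LUM at practically 0. Of 8 blood and endothelial markers, CDH5 was at 3.82 and 4.09 FPKM and CD14 at 2.23 and 2.24 FPKM, while CD3E and HBB were listed at 0 in both groups, VWF was at 0.0595 and 0.0696 FPKM, and PECAM1 had no row of that name. The 10 genes of the squamous epithelial list summed to 3698 FPKM in DMSO and 3853 in BB608.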

How the data were processed

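The labels name 6 libraries, 3 per group, prepared from Trizol-extracted total RNA with a stranded kit that depletes ribosomal RNA. TopHat2 2.0.11, Cufflinks 2.2.1 and Cuffdiff were used with build hg19, per the submitters' processing notes; which annotation was used is not stated there. The authors deposited FPKM values pooled per group and coding sequence, a log2 fold and a test statistic (a score), and a p-value and q-value from Cuffdiff. Depth is unknown. The labels call the replicates biological; the p-values measure only the spread the authors' model estimated.

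The authors' q was used for calls; it matched a Benjamini-Hochberg adjustment over all 34474 tested sequences to within 5.23e-07. No test of values per library was possible, the second case foreseen in the design. Each authors' p was turned into a normal quantile and set against the size of its statistic, and over 33027 rows this ratio had quartiles of 1.64 and 1.78 around a median of 1.73. The implied SE is the fold over the product of statistic and median ratio, an approximation given where both FPKM values exceeded 0.001. Rows at the smallest Cuffdiff p, 5e-05, were left out of the ratio, so the implied SE of sequences at that p is extrapolated. Gene sums carry no error. The adjustment step was run on simulated normal values drawn with the implied SEs. Since its p-values came from those same SEs, that run cannot test the authors' p-values or calls.

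The members, the 4 gene lists and the markers were chosen with earlier results of these data known; SRF is in 2 of the lists. Named genes are all members, the called genes of each list with the most abundant others up to 4, and the 3 genes nearest in fold to FOS and to FOSL1; 2 list genes that this rule names are not reported here, and genes named outside it are marked where they appear. Promoters are from RefSeq on GRCh38.p14 and were matched by symbol; transcripts are from GENCODE 29. Python 3.11.15, pandas 2.3.3 and scipy 1.17.1 were used. Filters, pseudocounts, scalings and summaries per gene were varied.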

Additional observations from a re-analysis of the deposited data

How the results depend on the processing

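The 2 calls, FOS and JUN, were 2 under both FPKM filters, normal p-values, centring, and separate adjustment by number of tested sequences, the last chosen after seeing the data. A bound of 1 log2 left 1, FOS, by its own construction, and an unadjusted p under 0.05, also added afterwards, gave 4. Of 42 settings over the 7 gene sums, 41 stayed within 1 implied SE of the gene's most abundant coding sequence. That SE was 1.02 for FOSB and 0.40 for FOSL2, so staying within it says little for these genes. The FOS gene sum of -0.61 became -1.24 with the most abundant coding sequence, which is the called one. The uncalled FOSL1 sum changed sign near 0, from 0.02 to -0.03 with quantile normalization. That of FOSB changed sign from -0.18 to 0.30 with the most abundant sequence. With the most abundant sequence the median of the bZIP list went from -0.05 to -0.18 and that of the immediate-early list from -0.54 to -0.64; the cause was not tested. Of 28 settings over called list genes, chosen after seeing the data, 10 moved by over 1 implied SE and none reversed. No paired analysis was possible because the values analysed here are pooled over libraries within each group. Leaving out each replicate was not run for the same reason. The gene sum of a gene with 1 sequence equals its fold, and the median shift of 0.03 log2 is smaller than any member's implied SE, so part of this stability was fixed in advance.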
